A study of Mus musculus with 8 samples.

Results

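Hepatokines are proteins that the liver releases into the blood. The 9 genes described here encode adropin (Enho), fibroblast growth factor 21 (Fgf21), the fetuins (Ahsg and Fetub), Lect2, Angptl4, retinol-binding protein (Rbp4), the activin E chain (Inhbe) and follistatin (Fst). They were chosen by name as secreted liver factors, with earlier results of these data known. All 9 were found among the 46517 genes of the count table and passed the filter on low counts. Livers came from male C57BL/6 mice of 31 weeks that had received a NASH diet for 25 weeks, starting at an age of 6 weeks, and had fasted for 16 hours. The 4 MøFoxO1-KO mice (myeloid FoxO1 knockout) carried floxed FoxO1 alleles and Cre driven by the Lyz2 promoter, which is active in myeloid cells such as macrophages and neutrophils. The 4 WT littermates carried the floxed alleles without Cre. The comparison asked how the liver transcriptome of NASH diet-fed mice differed when FoxO1 was deleted in myeloid cells.

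Most of these genes are transcribed mainly in hepatocytes, and several are controlled by feeding state. In fasting and under amino acid or endoplasmic reticulum stress, PPARα and ATF4 are known to raise Fgf21, whose product acts on cells that carry an FGF receptor together with β-Klotho. Adropin is linked to fuel choice and insulin sensitivity, fetuin-A (Ahsg) inhibits insulin receptor signalling, Angptl4 inhibits lipoprotein lipase, and follistatin binds and neutralizes activins.

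Total counts per mouse lay between 15253218 and 18025481. Normalized counts are counts divided by TMM-scaled library sizes and set to an average library. TMM factors were 0.992 to 1.154 in WT and 0.902 to 1.01 in MøFoxO1-KO livers, and with library totals in their place the median log2 fold change of all tested genes was -0.17. Foxo1 itself, which every liver cell type contributes to, had a log2 fold change of -0.17 (95% interval from -0.57 to 0.24; edgeR, P adjusted by the Benjamini-Hochberg method, BH, 0.686). Hepatocyte markers were abundant in every liver, with summed levels of 76780 to 95700 TPM (counts per exon length, scaled to 1000000 per liver) in WT and 75750 to 98670 in MøFoxO1-KO mice. WT replicate 23 stood apart across all tested genes, with root mean square log2 differences of 0.584 to 0.888 from the other livers, which differed from each other by 0.454 to 0.669. It also had the lowest summed endothelial markers, 42.1 TPM against 79.7 to 135 in the other 7 livers. It was the lowest WT liver for normalized Enho, Fetub, Rbp4 and Angptl4 counts, and leaving it out gave log2 fold changes of 1.93, 0.81, 0.31 and -0.08 for these genes, against 2.21, 0.90, 0.42 and 0.03 with it. Replicate 28 had the lowest summed macrophage markers, 257 TPM against 304 to 800 in the others. In bulk liver RNA, fewer cells of a type and less RNA per cell cannot be told apart.

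Across the 9 genes, Fetub rose in MøFoxO1-KO livers, Enho and Fst showed larger but more variable differences, and Fgf21 was the lowest by fold change. Calls needed both a BH-adjusted P below 0.05 and a log2 fold change beyond 1.5 in either direction. The quasi-likelihood test of edgeR called 0 of the 9, and 0.188% of the 13278 tested genes. Fetub alone passed the adjusted P without the fold limit (0.294% of all tested genes), and DESeq2 called 1 of the 9, Enho, and 1.08% of all tested genes. At an unadjusted P under 0.05, 4 passed, all higher in MøFoxO1-KO livers (Fetub, Enho, Fst and Rbp4), against 16.7% of all tested genes in either direction, 8.65% higher and 8.06% lower. DESeq2 passed an adjusted P under 0.05 for 4.41% of all tested genes. Groups were fully apart, with the MøFoxO1-KO mice on top, for 2 genes, Enho and Fetub, and for 5% of all tested genes. They were apart in the other direction for 0 of the 9 and for 4.71% of all tested genes. The median log2 fold change was 0.42 over the 9 genes and -0.01 over all tested genes, with 7 of the 9 higher. The median of the 9 was 0.25 with library totals and 0.19 with the correction for GC content and length, where the all-gene medians were -0.17 and -0.004.

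**Figure D1:**
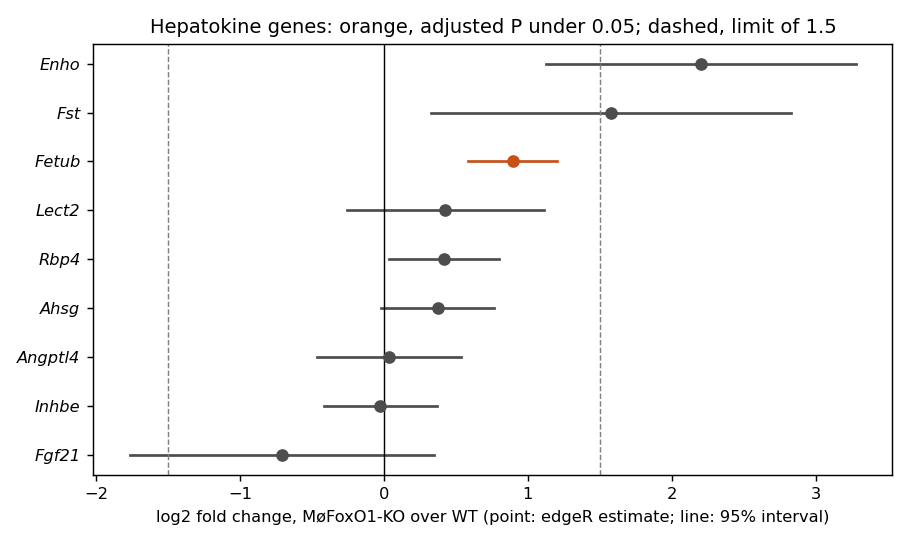
Log2 fold change of each hepatokine gene, MøFoxO1-KO over WT, from edgeR with 95% intervals (n = 4 mice per group). Fetub (orange, 0.90) passed the adjusted P, and the intervals of Enho, Fst and Rbp4 also lay above 0 before adjustment for multiple tests. Dashed lines mark the fold limit of 1.5 in each direction.

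Enho, which encodes adropin, lies on chromosome 4 of GRCm38 (41638144 to 41640324, minus strand). Its counts were 161, 38, 130 and 88 in WT replicates 22, 23, 24 and 25. MøFoxO1-KO replicates 26, 27, 28 and 29 had 190, 667, 358 and 460 Enho counts. Every MøFoxO1-KO liver lay above every WT liver, but replicate 26 lay close to the highest WT mouse, and replicate 27 was far above it. After normalization Enho was at 98.9 ± 48.5 in WT and 458 ± 263 in MøFoxO1-KO livers (SD, n = 4; exact two-sided permutation test, P = 0.0286, the smallest that 4 against 4 mice allow). The difference was 4.61-fold, with a 95% interval from 2.19 to 9.72. On the log2 scale this was 2.21 ± 0.48 (SE), which did not pass (edgeR, BH-adjusted P = 0.0994), ranking 133 of 13278 by P.

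The Enho difference depended on the test for its call. DESeq2 gave a log2 fold change of 2.22 (DESeq2, BH-adjusted P = 0.000211) and edgeR with all genes kept, however low, 2.19 (adjusted P = 0.0118). Without MøFoxO1-KO replicate 27 the edgeR value was 1.81 (adjusted P = 0.309), and without WT replicate 22 it was 2.48 (adjusted P = 0.165). Dnaic1, an axonemal dynein gene on the opposite strand, shares 15 exon bases with Enho and had between 0 and 8 counts per mouse.

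Genes around adropin were fixed as a list of proposed receptors and partners (Gpr19, Notch1, Cntn6) and of nuclear receptors that are known or thought to control Enho. Of 9 tested, 4 were higher and 5 lower, 1 in each direction passed an unadjusted P under 0.05 (22.2%, near the 16.7% of all tested genes), and 0 passed an adjusted P by edgeR or DESeq2. The 2 genes were Nr1h3 (LXRα), at 0.31 on the log2 scale, and Rora, at -0.38. Normalized Nr1h3 counts were 1426 to 1575 in WT and 1699 to 2091 in MøFoxO1-KO livers, without overlap. Gpr19 had a log2 fold change of -0.16 and Notch1 of -0.20, both within the spread between mice. Cntn6 had 0 counts in all 8 livers.

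**Figure D2:**
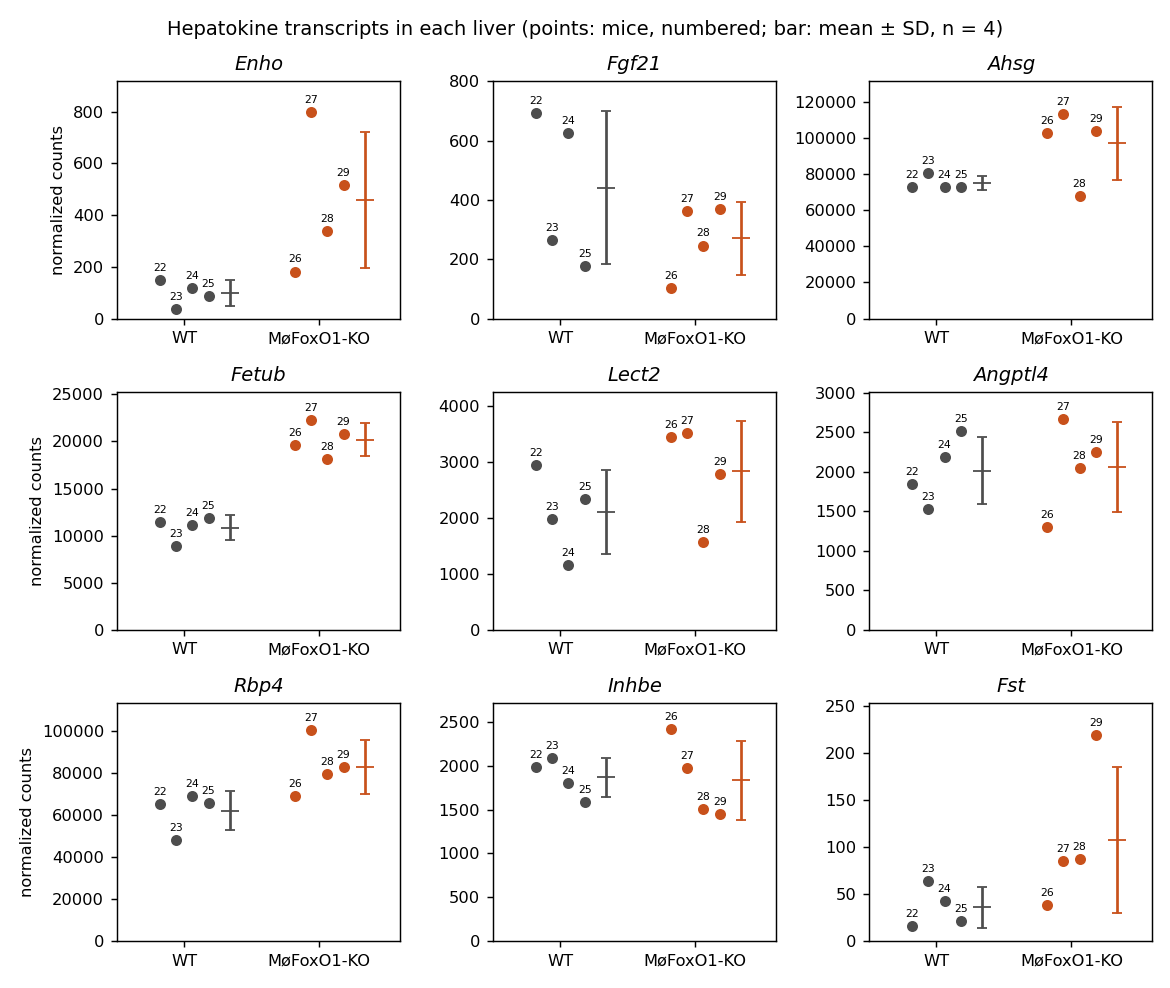
Normalized counts of the 9 hepatokine genes in each mouse (points, with the replicate number), with mean ± SD at the right of each group (n = 4). The groups do not overlap for Enho (highest WT 151, lowest MøFoxO1-KO 182) and Fetub (11920 and 18110), and they overlap for the other 7 genes.

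Fgf21 lies on chromosome 7 (45613907 to 45615490, minus strand). WT livers had 742, 270, 679 and 178 Fgf21 counts in replicates 22 to 25. MøFoxO1-KO livers had 109, 304, 260 and 329 counts in replicates 26 to 29. WT mice split into replicates 22 and 24, above every MøFoxO1-KO mouse, and replicates 23 and 25, within the MøFoxO1-KO range. Normalized counts were 441 ± 258 in WT and 271 ± 124 in MøFoxO1-KO livers (SD, n = 4; exact permutation test, P = 0.314). A log2 fold change of -0.71 ± 0.48 (SE) was within the spread between mice (edgeR, BH-adjusted P = 0.490). Its interval, from -1.77 to 0.35, allowed anything from a marked decrease to a small increase. It was -0.40 when WT replicate 22 was left out, -0.97 when WT replicate 25 was, and -0.99 with the correction for GC content and length, with BH-adjusted P values by edgeR of 0.743, 0.306 and 0.357.

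The bases before the Fgf21 and Inhbe starts are shown because both hold a match to TGATGCAA, a letter sequence bound by ATF4 with C/EBP partners. They are RefSeq sequences of GRCm38.p6, read 5′ to 3′ on the gene's strand (chr7:45615491-45615740 and chr10:127351849-127352098, both minus strand). Capitals mark the TGATGCAA match, which lies on the opposite strand in both, and in Fgf21 also an E-box, CACGTG.
Fgf21: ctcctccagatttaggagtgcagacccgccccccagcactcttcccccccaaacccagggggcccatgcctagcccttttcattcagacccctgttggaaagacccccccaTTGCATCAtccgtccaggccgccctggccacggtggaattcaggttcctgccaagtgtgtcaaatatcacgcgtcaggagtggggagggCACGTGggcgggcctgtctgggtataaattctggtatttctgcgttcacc
Inhbe: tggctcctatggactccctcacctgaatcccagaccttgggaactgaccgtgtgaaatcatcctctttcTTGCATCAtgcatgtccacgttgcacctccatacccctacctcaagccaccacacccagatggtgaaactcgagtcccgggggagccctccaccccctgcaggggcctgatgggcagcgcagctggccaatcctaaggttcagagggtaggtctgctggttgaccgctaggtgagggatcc
The first base of the TGATGCAA match lay at position -139 from the Fgf21 start and at -181 from the Inhbe start, and the E-box at -50 of Fgf21. Promoter windows of 300 bases were given for 6 of the 9 genes (8 windows), without Enho, Angptl4 and Fst. Both strands were searched, and TGATGCAA was found in 0.895% of 32851 windows and CACGTG in 7.15%. The core of PPAR sites, AGGTCA, found in 16.3% of windows, was not in any of the 8 windows. A match describes letters only.

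ATF4 target genes, which answer amino acid and endoplasmic reticulum stress, were mostly lower in MøFoxO1-KO livers. The list was written with earlier results of these data known, and the authors had reported Trib3 and Vldlr as downregulated in them. Of 13 tested genes in the list, 2 were higher and 11 lower, 0 higher and 6 lower at an unadjusted P under 0.05 (8.06% of all tested genes were lower at that limit), and 0 passed a BH-adjusted P by edgeR. The median log2 fold change was -1.03, against -0.01 over all tested genes, and was -0.73 without WT replicate 24. Under DESeq2, 6 of the genes passed the adjusted P, as did 4.41% of all tested genes. For 4 of the 13 genes every WT liver exceeded every MøFoxO1-KO liver, as for 4.71% of all tested genes. The smallest P values belonged to Trib3, a pseudokinase that restrains Akt signalling (-1.03), Vldlr, a lipoprotein receptor (-1.53), Nupr1, a stress-induced chromatin protein (-1.80), and Chac1, which degrades glutathione (-1.23), all as log2 fold changes. Trib3 had 261 to 349 normalized counts in WT and 97.4 to 190 in MøFoxO1-KO livers (edgeR, BH-adjusted P = 0.0799).

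The WT livers that were high for Fgf21 were also high for part of this list. WT replicates 22 and 24 were the highest WT mice for Fgf21, for the stress hormone Gdf15 and for 6 of the 13 ATF4 list genes, a count made after the values were seen. The rest of the list had another pair on top, and how many of all tested genes share this order was not counted. WT replicate 25, the lowest WT mouse for Fgf21, was also low for Psat1, a serine synthesis enzyme, with 4.98 normalized counts against 158 in replicate 24. For Ddit3 and Vldlr, replicate 25 was instead the highest WT mouse. Atf4 itself had a log2 fold change of 0.13 (edgeR, BH-adjusted P = 0.582).

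**Figure D3:**
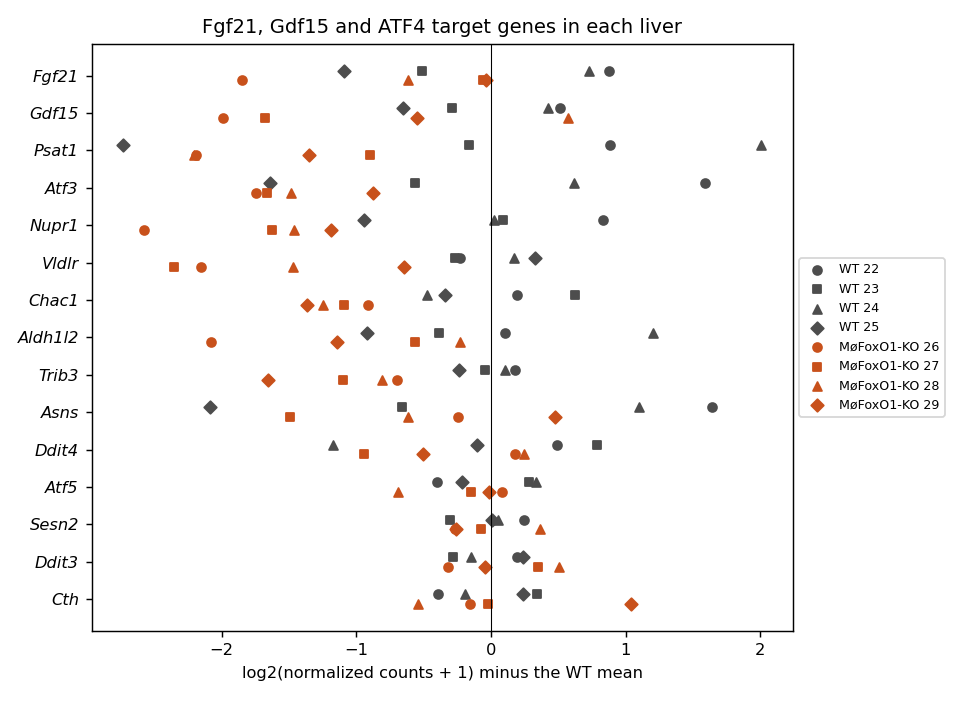
Fgf21, Gdf15 and the 13 tested ATF4 target genes in each mouse, as log2(normalized counts + 1) minus the WT mean of the gene (gray, WT; orange, MøFoxO1-KO; marker shape, replicate). WT replicates 22 and 24 lie to the right for Fgf21, Gdf15, Asns and Atf3, and all orange points lie left of the gray ones for Nupr1, Vldlr, Chac1 and Trib3.

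Of 20 PPARα target genes tested, which serve fatty acid oxidation, 3 were higher and 17 lower, where 51.7% of all tested genes were lower. At an unadjusted P under 0.05 there were 1 higher and 2 lower (15%, near the 16.7% of all tested genes). Of the 20, 0 passed a BH-adjusted P by edgeR and 2 by DESeq2, which passed 4.41% of all tested genes. The median log2 fold change of the 20 was -0.14. The lower genes were Acot2, a mitochondrial acyl-CoA thioesterase (-1.12), and Pdk4, which blocks pyruvate oxidation (-1.28). Fabp1, the fatty acid-binding protein of hepatocytes, was at 0.57. Ppara itself was at -0.26.

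Among the receptors through which FGF21 and its relatives signal, 0 genes passed an adjusted P by edgeR or DESeq2. The coreceptor Klb had a log2 fold change of -0.24, Fgfr1 of 0.49, Fgfr2 of 0.12, Fgfr3 of 0.08 and Fgfr4, the main receptor of hepatocytes, of -0.09. Of 13 receptors and upstream regulators tested, 1 was higher and 2 lower at an unadjusted P under 0.05 (23.1%, against 16.7% of all tested genes). They were Creb3l3, a liver transcription factor that acts on Fgf21 with PPARα (0.31), Ppargc1a, a coactivator of fasting genes (-0.53), and Rora, given above. Creb3l3 had 4994 to 5731 normalized counts in WT and 6235 to 7497 in MøFoxO1-KO livers, so its groups did not overlap.

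Fetub, which encodes fetuin-B, an inhibitor of the protease ovastacin, was the member with the smallest P. It lies on chromosome 16 (22918382 to 22939766, plus strand), next to Ahsg (22892042 to 22899438, plus strand). Fetub had 12271, 9009, 12092 and 11978 counts in WT replicates 22 to 25. MøFoxO1-KO replicates 26 to 29 had 20496, 18648, 19080 and 18560 Fetub counts. The 4 MøFoxO1-KO livers lay close together and well above the highest WT liver. Normalized counts were 10860 ± 1370 in WT and 20200 ± 1762 in MøFoxO1-KO livers (SD, n = 4; exact permutation test, P = 0.0286). Fetub rose 1.86-fold, with a 95% interval from 1.501 to 2.305. In log2 units it was 0.90 ± 0.14 (SE; edgeR, BH-adjusted P = 0.0338), ranked 28 by P and lay under the fold limit of 1.5.

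The adjusted P of Fetub moved with the mice included, while its size did not. Leaving out 1 mouse at a time gave log2 fold changes of 0.81 to 0.96 and BH-adjusted P values of 0.0306 to 0.135 by edgeR, under 0.05 in 2 of 8 fits. Those were the fits that lacked WT replicate 23 or MøFoxO1-KO replicate 28. DESeq2 gave 0.91 (DESeq2, BH-adjusted P = 1.53e-08), and library totals in place of TMM gave 0.73 (edgeR, adjusted P = 0.0574). Per exon length, Fetub had 614 to 807 TPM in WT and 1058 to 1126 TPM in MøFoxO1-KO livers.

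**Figure D4:**
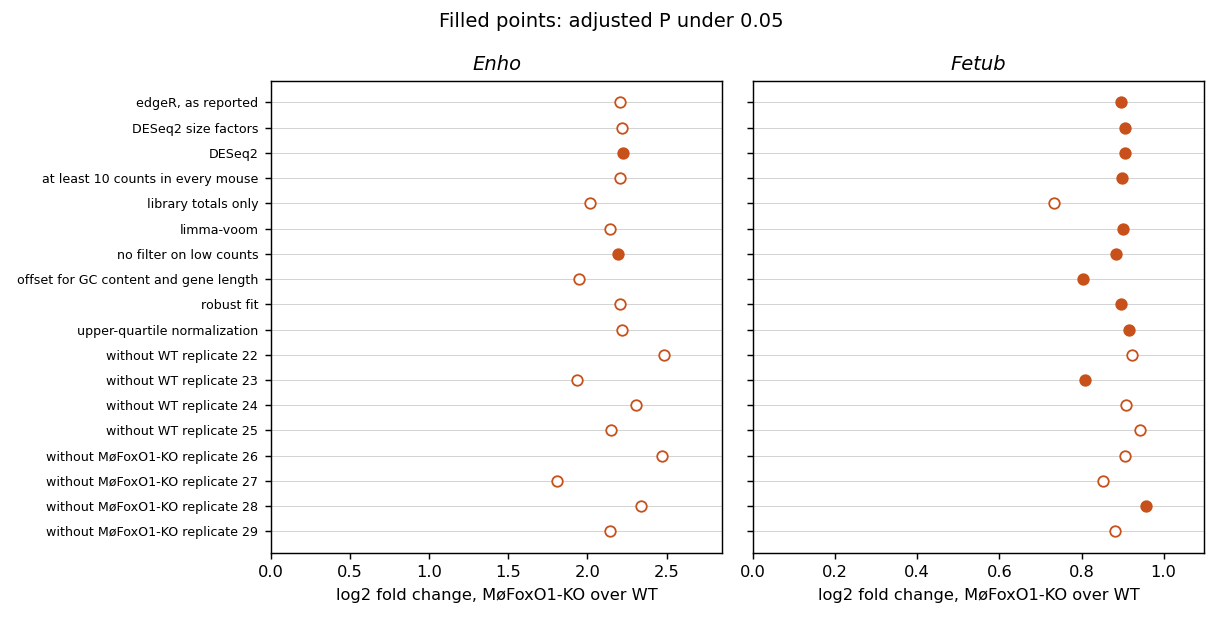
Log2 fold changes of Enho (left) and Fetub (right), MøFoxO1-KO over WT, as reported and under 17 alternatives. Filled points passed an adjusted P under 0.05. Enho lay between 1.81 and 2.48 and passed in 2 alternatives, and Fetub lay between 0.73 and 0.96 and passed in 10.

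Ahsg, one of the most abundant liver transcripts, had 77604, 81978, 79140 and 73372 counts in WT replicates 22 to 25. MøFoxO1-KO replicates 26 to 29 had 107211, 94977, 71275 and 92753 Ahsg counts. After normalization replicate 28 lay below the WT range and the other 3 MøFoxO1-KO livers above it. The means were 74850 ± 3844 in WT and 96920 ± 20100 in MøFoxO1-KO livers (SD, n = 4; exact permutation test, P = 0.143). At a log2 fold change of 0.37 ± 0.18 (SE), Ahsg did not pass (edgeR, BH-adjusted P = 0.327). It was 0.52 without replicate 28 (adjusted P = 0.123) and 0.21 with library totals in place of TMM.

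The fetuin genes stand in a row of cystatin family genes on chromosome 16, followed by Hrg, Kng2 and Kng1. All 5 had a positive log2 fold change, 2 at an unadjusted P under 0.05 (8.65% of all tested genes were higher at that limit) and 1, Fetub, at an adjusted P. Kng1, which encodes a kininogen, the precursor of bradykinin, had 26900 to 29650 normalized counts in WT and 36120 to 43590 in MøFoxO1-KO livers (log2 fold change 0.50 ± 0.13, SE; edgeR, BH-adjusted P = 0.125). Kng2 was at 0.29 and Hrg, a histidine-rich plasma protein, at 0.08, both with overlapping groups. Kng1 and Kng2 are near copies, and how reads matching both were counted is not stated, so their separate values are uncertain. Neighbours in the row thus differed in size, from 0.08 for Hrg to 0.90 for Fetub, and these differences between genes were not tested.

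Windows before Fetub and Rbp4 starts are shown because a FoxO letter sequence, GTAAACA, lay in 1 window of each gene. Fetub has 2 RefSeq starts, at 22918382 (chr16:22918132-22918381, plus strand) and 22920222 (chr16:22919972-22920221, plus strand), and the match was before the second, at position -236 on the opposite strand. In Rbp4 (chr19:38125322-38125571, minus strand) it lay at -241. Capitals mark the match, and the first Fetub window has none.
Fetub, first start: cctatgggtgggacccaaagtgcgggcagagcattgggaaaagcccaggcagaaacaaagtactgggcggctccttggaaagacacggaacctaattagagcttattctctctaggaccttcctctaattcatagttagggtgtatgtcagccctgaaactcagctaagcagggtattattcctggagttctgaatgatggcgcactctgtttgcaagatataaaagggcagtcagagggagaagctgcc
Fetub, second start: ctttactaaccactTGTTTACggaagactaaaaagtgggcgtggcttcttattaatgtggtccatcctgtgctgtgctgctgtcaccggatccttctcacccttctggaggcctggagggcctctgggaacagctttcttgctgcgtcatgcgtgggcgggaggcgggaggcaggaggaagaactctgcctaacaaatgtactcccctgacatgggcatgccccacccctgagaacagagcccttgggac
Rbp4: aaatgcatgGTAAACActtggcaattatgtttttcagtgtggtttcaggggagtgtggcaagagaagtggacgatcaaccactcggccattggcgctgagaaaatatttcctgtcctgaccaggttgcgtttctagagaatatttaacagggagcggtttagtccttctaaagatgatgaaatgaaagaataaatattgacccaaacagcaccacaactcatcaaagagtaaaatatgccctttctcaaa
GTAAACA was found in 3.65% of 32851 windows. FoxO1 was deleted in myeloid cells and not by design in hepatocytes, and these letters say nothing of binding.

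Of 11 hepatocyte markers, 9 were higher and 2 lower, 4 higher at an unadjusted P under 0.05 (8.65% of all tested genes) and 0 at a BH-adjusted P by edgeR (3 by DESeq2, which passed 4.41% of all tested genes). Their median was 0.21 on the log2 scale. Summed levels overlapped, at 76780 to 95700 TPM in WT and 75750 to 98670 TPM in MøFoxO1-KO livers, and none of the 11 was near 0. The part of these markers in the Ahsg, Fetub and Rbp4 values was not tested.

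Of 4 tested receptors on which fetuin-A or Lect2 is known or thought to act, 3 were higher and 1 lower, and 0 passed an unadjusted P under 0.05 by edgeR or an adjusted P by DESeq2. The insulin receptor Insr had a log2 fold change of -0.24, the hepatocyte growth factor receptor Met of 0.12, the endothelial receptor Tie1 of 0.07 and Tlr4 of 0.60.

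Lect2, a chemotactic liver protein, lies on chromosome 13 (56542460 to 56548538, minus strand). WT replicates 22 to 25 had 3132, 2011, 1247 and 2351 Lect2 counts. MøFoxO1-KO replicates 26 to 29 had 3580, 2945, 1654 and 2487 counts. The groups overlapped, with WT replicate 24 and MøFoxO1-KO replicate 28 the lowest of their groups. Normalized counts were 2101 ± 746 in WT and 2826 ± 899 in MøFoxO1-KO livers (SD, n = 4; exact permutation test, P = 0.257). Lect2 had a log2 fold change of 0.43 (95% interval from -0.25 to 1.11; edgeR, BH-adjusted P = 0.523).

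Angptl4, an inhibitor of lipoprotein lipase that rises in fasting, lies on chromosome 17 (33773750 to 33781575, minus strand). Its counts were 1963, 1551, 2362 and 2522 in WT replicates 22 to 25. In MøFoxO1-KO replicates 26 to 29 they were 1355, 2230, 2156 and 2004. The groups overlapped fully, with normalized counts of 2014 ± 426 in WT and 2063 ± 571 in MøFoxO1-KO livers (SD, n = 4; exact permutation test, P = 0.914). For Angptl4 the log2 fold change was 0.03, with an interval from -0.46 to 0.53 (edgeR, BH-adjusted P = 0.955), and it turned to -0.13 with library totals in place of TMM.

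Other genes of the lipoprotein lipase axis ranged from -1.59 to 0.74 in log2 fold change. Of 14 tested, Angptl4 among them, 11 were higher and 3 lower, with 5 higher and 2 lower at an unadjusted P under 0.05 (16.7% of all tested genes in either direction). The fatty acid transporter Cd36 alone was called, lower in MøFoxO1-KO livers (-1.59; edgeR, BH-adjusted P = 0.00935), where 0.188% of all tested genes were called. The other of the 2 lower genes was Vldlr, given above (-1.53; edgeR, BH-adjusted P = 0.1015), with every MøFoxO1-KO liver below every WT liver. Angptl8, a feeding-induced inhibitor of the lipase, had 611 to 1352 normalized counts in WT and 1434 to 1897 in MøFoxO1-KO livers, without overlap (log2 fold change 0.74; edgeR, BH-adjusted P = 0.157). Lpl itself was at 0.19, with overlapping groups. The apolipoproteins Apoc1, Apoc2 and Apoc3, which modulate the lipase, lay between 0.55 and 0.59. The list's median log2 fold change was 0.21, and 0.05 with library totals in place of TMM.

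Rbp4, the plasma carrier of retinol, lies on chromosome 19 (38116620 to 38125321, minus strand). Counts were 69483, 48928, 74940 and 66018 in WT replicates 22 to 25. In MøFoxO1-KO replicates 26 to 29 they were 71928, 83894, 83508 and 73897. After normalization MøFoxO1-KO replicate 26 lay just below WT replicate 24, and the other 3 MøFoxO1-KO livers lay above all WT livers. The means were 62020 ± 9446 in WT and 82780 ± 13000 in MøFoxO1-KO livers (SD, n = 4; exact permutation test, P = 0.0571). Rbp4 did not pass at a log2 fold change of 0.42 (95% interval from 0.03 to 0.80; edgeR, BH-adjusted P = 0.265). It was 0.25 with library totals, 0.22 after correction for GC content and length, and 0.31 without WT replicate 23.

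In the retinol list, 6 of 11 tested genes were higher and 5 lower, 2 higher at an unadjusted P under 0.05 (18.2%, near the 16.7% of all tested genes) and 0 at an adjusted P by edgeR or DESeq2. Rbp4 was 1 of these 2. Ttr, transthyretin, which carries Rbp4 in plasma, was at 0.39 (edgeR, BH-adjusted P = 0.316). The liver receptor gene Stra6l was at -0.17, and Stra6 had at most 1 count in any liver. The list's median was 0.14, and -0.004 with library totals.

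Inhbe and Fst stand on opposite sides of the activin axis, the first encoding an activin chain and the second an activin inhibitor. Inhbe lies on chromosome 10 (127349402 to 127351772, minus strand). Its counts were 2117, 2123, 1958 and 1596 in WT replicates 22 to 25. MøFoxO1-KO replicates 26 to 29 had 2519, 1650, 1583 and 1294 Inhbe counts. Normalized counts overlapped, at 1867 ± 218 in WT and 1834 ± 453 in MøFoxO1-KO livers (SD, n = 4; exact permutation test, P = 0.886). Inhbe had a log2 fold change of -0.03 with an interval from -0.42 to 0.37 (edgeR, BH-adjusted P = 0.957), and its sign changed when single mice were left out.

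Fst lies on chromosome 13 (114452262 to 114458730, minus strand). It was the scarcest of the 9 transcripts, with 17, 65, 46 and 21 counts in WT replicates 22 to 25. MøFoxO1-KO replicates 26 to 29 had 40, 71, 92 and 196 counts. Replicate 29 was far above the rest, and replicate 26 lay within the WT range. Normalized counts were 35.8 ± 22 in WT and 107 ± 78.0 in MøFoxO1-KO livers (SD, n = 4; exact permutation test, P = 0.0857). The difference was 2.99-fold, with a 95% interval from 1.25 to 7.12, and did not pass the adjusted P (log2 fold change 1.58; edgeR, BH-adjusted P = 0.215). Without replicate 29 the log2 fold change was 0.97 (adjusted P = 0.469).

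In the activin list, 6 of 15 tested genes were higher and 9 lower, 2 higher and 1 lower at an unadjusted P under 0.05 (20%, near the 16.7% of all tested genes) and 0 at an adjusted P by edgeR or DESeq2. Besides Fst, Inhbc, another liver activin chain gene, was higher at 0.45. The type II receptor Acvr2a was lower, with 262 to 375 normalized counts in WT and 200 to 243 in MøFoxO1-KO livers, without overlap (log2 fold change -0.47; edgeR, BH-adjusted P = 0.165). The receptor genes Acvr1 (-0.06), Acvr1b (-0.27) and Acvr2b (0.04) overlapped.

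Of 22 other liver-secreted factors tested, 14 were higher and 8 lower, 6 higher and 1 lower at an unadjusted P under 0.05 (31.8%, against 16.7% of all tested genes). Of the 22, 0 passed a BH-adjusted P by edgeR and 3 by DESeq2, which passed 4.41% of all tested genes. Their median log2 fold change was 0.14 and was -0.005 with library totals. Besides Angptl8, the smallest P values belonged to Manf, a secreted endoplasmic reticulum stress protein (0.58), Igf1 (0.55) and Fgl1, a hepatocyte-secreted fibrinogen-like protein (1.33). Manf lay at 587 to 804 normalized counts in WT and 875 to 1348 in MøFoxO1-KO livers, without overlap. Igf1 was at 4831 to 7591 in WT and 7479 to 10250 in MøFoxO1-KO livers, with the lowest MøFoxO1-KO mouse, replicate 28, inside the WT range. Fgl1 was at 2650 to 5150 in WT and 2909 to 19460 in MøFoxO1-KO livers, again with replicate 28 inside the WT range. The lower gene was Lcn2, an acute-phase protein (-1.69), named after its values were seen, with 1873 normalized counts in WT replicate 23 and 167 to 413 in the other 7 livers.

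Levels of the 9 transcripts spread widely per exon length, from Ahsg at the top to Fst at the bottom. Mean levels in WT livers were 6551 ± 609 TPM for Ahsg, 6159 ± 1010 for Rbp4, 730 ± 82.1 for Fetub and 305 ± 97.3 for Lect2 (SD, n = 4). In MøFoxO1-KO livers these levels were 6783 ± 1140 TPM for Ahsg, 6597 ± 694 for Rbp4, 1094 ± 34.5 for Fetub and 332 ± 100.2 for Lect2 (SD, n = 4). Ahsg and Rbp4 were not apart, since Ahsg was the higher in 3 of 8 livers, while Rbp4, Fetub, Lect2 and Inhbe followed each other without overlap of their ranges.

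Lower in the order, levels in WT livers were 113 ± 17.1 TPM for Inhbe, 78.7 ± 15.3 for Angptl4, 61.9 ± 36.9 for Fgf21, 10.0 ± 4.95 for Enho and 2.02 ± 1.30 for Fst (SD, n = 4). In MøFoxO1-KO livers they were 89.6 ± 24.6, 64.6 ± 14.9, 29.7 ± 12.3, 36.5 ± 18.8 and 4.68 ± 3.21 TPM in the same order of genes (SD, n = 4). Inhbe lay above Angptl4 in 6 of 8 livers and Angptl4 above Fgf21 in 6 of 8, with overlapping ranges. Fgf21 lay above Enho in 4 of 8 livers, and Enho above Fst in 8 of 8.

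**Figure D5:**
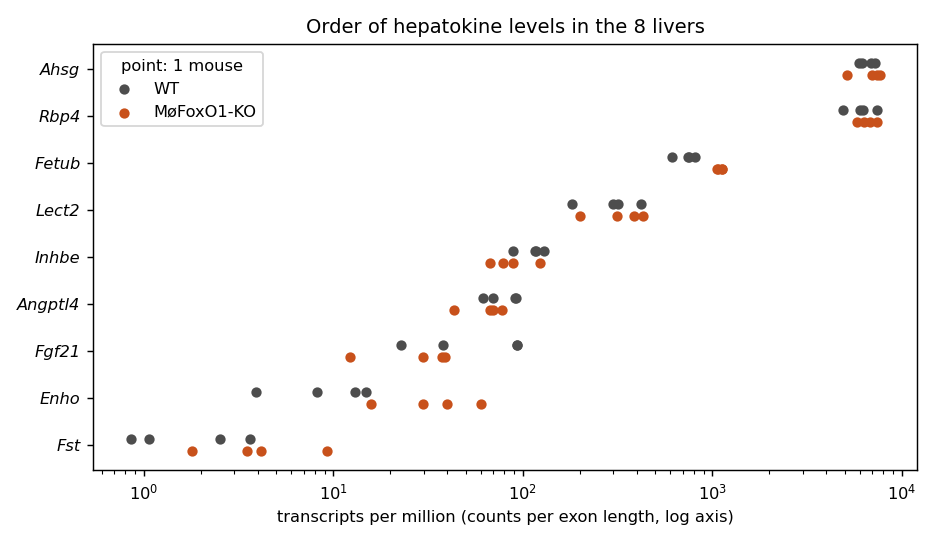
Level of each hepatokine transcript in each liver, in TPM on a log axis, ordered by mean over the 8 livers (gray, WT; orange, MøFoxO1-KO; each point is 1 mouse). Ahsg and Rbp4 overlap near the top, and the orange points of Enho (15.7 to 60.5) and Fetub (1058 to 1126) lie right of the gray ones.

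Deviations of each mouse from its group mean, on the log2 scale, were used to describe which genes varied together. The 8 mice share group means, TMM scaling and library composition, so these correlations are descriptive. Among the 9 genes the highest Pearson correlations over the 8 mice were 0.94 between Enho and Rbp4, 0.86 between Angptl4 and Rbp4 and 0.84 between Fetub and Rbp4, and the lowest was -0.68 between Angptl4 and Inhbe. For Enho, Rbp4, Angptl4 and Fetub, replicate 23 was the lowest WT liver and replicate 27 the highest MøFoxO1-KO liver. Enho and Fgf21 were at 0.79. Of 10389 genes compared, those most like Enho were Arhgap39 (0.99), Rpl36al (0.97), Mrpl17 (0.97), Il1a (0.97) and Rpl38 (0.97). Those most like Fgf21 were Trit1 (0.98), Endod1 (0.96), Nagk (0.95), Tapbp (0.95) and Sept1 (0.94). As the highest of 10389 genes over only 8 mice, these values are high by selection and were not tested.

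Markers of other cell types moved beside these genes in part. Macrophage markers had 10 of 16 higher and 6 lower (median 0.55 on the log2 scale). At an unadjusted P under 0.05, 5 were higher and 2 lower (43.8%, against 16.7% of all tested genes, 8.65% higher and 8.06% lower). Gpnmb, a lysosomal glycoprotein of lipid-laden macrophages, was called lower (-4.13; edgeR, BH-adjusted P = 0.0382), where 0.188% of all tested genes were called. The other marker lower at an unadjusted P under 0.05 was Trem2, a lipid receptor (-3.88). The 5 higher were the scavenger receptor Marco (5.18), Timd4 of resident Kupffer cells (2.08), Vsig4 (1.08), Cd5l (1.08) and Adgre1 (1.03), named after their values were seen. Only Timd4 of these had every MøFoxO1-KO liver above every WT liver, and 0 of the 5 passed a BH-adjusted P by edgeR. Replicate 28 had 66.4 normalized Marco counts, inside the WT range of 4.92 to 81.2, while the other MøFoxO1-KO livers had 737 to 2712. In replicate 28, Vsig4 (148) and Adgre1 (69.3) lay below every WT liver, and Cd5l (1017) inside the WT range. The summed level of the 16 markers was 304 to 527 TPM in WT and 257 to 800 TPM in MøFoxO1-KO livers. Stellate cell markers summed to 242 to 414 TPM in WT and 230 to 377 TPM in MøFoxO1-KO livers, endothelial markers to 42.1 to 135 and 79.7 to 135 TPM, and T and B cell markers to 6.56 to 28.2 and 15.6 to 30.5 TPM. Cholangiocyte markers summed to 103 to 140 TPM in WT and 75.0 to 95.9 TPM in MøFoxO1-KO livers. Most of this sum was Spp1, also a macrophage marker, and the other 7 genes summed to 20.6 to 28.4 TPM in WT and 15.6 to 19.9 TPM in MøFoxO1-KO livers. Neither sum overlapped between the groups. Of 7 cholangiocyte markers tested, 0 passed an unadjusted P under 0.05 by edgeR or an adjusted P by DESeq2. Neutrophil markers summed to 6.32 to 18.8 TPM in WT and 3.10 to 14.1 TPM in MøFoxO1-KO livers, with Cxcr2 and Ly6g at 3 counts or fewer throughout. Of 8 adipocyte markers, the defining Adipoq, Lep, Plin1 and Retn had at most 3 counts in any liver. The other 4 passed the filter on low counts. Cidea, a lipid droplet protein, was at -5.74 and Adrb3 at 1.52 in log2 fold change, each without overlap of the groups, and Cfd ranged from 0 to 4514 normalized counts. All 8 summed to 888 to 1147 TPM in WT and 400.4 to 1084 TPM in MøFoxO1-KO livers. Most of this sum was Pck1, with means of 785 TPM in WT and 609 TPM in MøFoxO1-KO livers (log2 fold change -0.04), so it says little of the other markers. The part of these cell types in the hepatokine values was not tested.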

How the data were processed

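The authors deposited 1 table of raw read counts per gene for 8 whole livers, made from polyadenylated RNA, with GRCm38 gene coordinates and exon lengths. The submitters' processing notes name STAR, featureCounts and mm10. Versions, strand setting and the treatment of reads matching several genes are not given in the sources used here. Symbols came from GENCODE M21 (46005 of 46517 genes). Groups came from the labels, and replicate numbers are not shared between groups. No label says how the 8 livers were batched, and a batch that followed the groups could not be told apart from genotype. P values weigh the difference between the groups against the spread between these mice.

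Genes were filtered with filterByExpr (minimum count 10, minimum total 15) and scaled by TMM. The quasi-likelihood test of edgeR 4.0.16 in R 4.3.3 was used with Benjamini-Hochberg adjustment over 13278 genes. Standard errors came from the F statistic. Exact two-sided permutation tests of normalized counts used all 70 splits of the mice. Alternatives were DESeq2 1.42.0, limma-voom (limma 3.58.1), other normalizations and filters, a robust fit and leaving out each mouse. The offset for GC content and gene length and the use of library totals were chosen after seeing the data. Total counts of 15253218 to 18025481 per mouse limit precision for scarce transcripts such as Fst.

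The members and lists were chosen with earlier results of these data known. Named genes are the members, Foxo1, list genes past an adjusted P of 0.05 or otherwise up to 4 with the smallest P under 0.05, partners of a member, and the 5 genes most like Enho and Fgf21. Likeness was compared over genes with mean normalized counts of 50 or more. Some list genes are counted but not reported here by name.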

Additional observations from a re-analysis of the deposited data

Results flagged for a closer look

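Ahsg in WT livers was the 1 flagged value among 18 sets of 4 mice tested (9 genes in 2 groups). WT replicate 23, at 80610 normalized counts, stood apart from the other WT livers at 72700 to 73050, with a gap of 0.956 of the group's range, above Dixon's critical value for 4 samples. Chance flags about 1 in 20 groups. The log2 fold change of Ahsg was 0.37 with this mouse and 0.41 without it.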

How the results depend on the processing

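Each value was recomputed under 17 alternatives. The count of called hepatokines was 1 with DESeq2 and 1 with no filter on low counts (Enho in both), 1 without the fold limit (Fetub) and 4 at an unadjusted P. Enho passed both limits with DESeq2 (2.22) and with no filter (2.19). Fetub missed the adjusted P with library totals (0.732). Leaving out 1 mouse gave 0.809 to 0.956 for Fetub, which was past the adjusted P in 2 of 8 fits, 1.81 to 2.48 for Enho, -0.972 to -0.403 for Fgf21 and 0.965 to 2.01 for Fst. Angptl4 reversed to -0.133 with library totals and lay between -0.104 and 0.202 without 1 mouse, and Inhbe between -0.188 and 0.071, neither past the test. Ahsg, Lect2 and Rbp4 kept their direction, at 0.193 to 0.524, 0.175 to 0.639 and 0.219 to 0.494. Library totals in place of TMM shifted the median of all genes to -0.168, and hepatokine values moved with it. The cause was not tested.

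No paired analysis was possible because the groups share no replicate numbers. With 4 mice per group, standard errors ranged from 0.14 for Fetub to 0.56 for Fst on the log2 scale. The count of called genes over the whole table was 25, 144 with DESeq2, 120 with no filter, 3 when WT replicate 25 was left out and 82 when MøFoxO1-KO replicate 28 was.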
